A study of Mus musculus with 6 samples.

Results

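The paralogous miR-23, miR-27 and miR-24 clusters were followed through their precursor features in small RNA libraries of mouse bone marrow. The 6 members were found by position: features whose start and end equal those of the GENCODE M21 miRNA genes Mir23a, Mir27a and Mir24-2 on chromosome 8, and Mir23b, Mir27b and Mir24-1 on chromosome 13. They are 6 of 912 miRNA features and of 1823 features with a read in any library, and all 6 had reads in every library. The libraries were made from total RNA of bone marrow cells, described in the series' design text as lineage-negative (Lin-), the fraction depleted of mature blood cells. The genotypes compared were wild type (WT) and a maternal knockout (Mat KO, here KO), with 3 libraries each; the series title names the imprinted Dlk1-Gtl2 locus. No source used here gives the age or strain of the mice, the part of the locus that was changed, or whether each library is a separate animal. The p-values thus measure a spread between libraries that may be technical. PCR products of 170 to 370 bp, the length of snoRNAs with adaptors, were cut from a gel, which selects against mature miRNAs. A read of a miRNA feature is therefore described as a read of the precursor's region. In bulk libraries, fewer cells that express a feature and less of it per cell cannot be told apart.

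Each cluster is transcribed as 1 long primary RNA, from which Drosha cuts a hairpin per member and Dicer then frees the mature strands. The chromosome 8 cluster is known as a target of the transcription factor PU.1 that favours myeloid over B lymphoid fate in blood progenitors. The chromosome 13 cluster is its paralog, with members in the same order. A mature miRNA finds its target mRNAs mainly through its seed, bases 2 to 8, so members with 1 seed can act on overlapping targets.

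The mature sequences show which members can be told apart, and are given 5′ to 3′ with the seed in capitals, from RefSeq on GRCm38.p6. All 10 features looked up there (the 6 members, Mir3074-1, Mir3074-2, Mir128-1 and Mir128-2) matched by symbol.
miR-23a-3p: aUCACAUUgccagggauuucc
miR-23a-5p: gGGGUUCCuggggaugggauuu
miR-23b-5p: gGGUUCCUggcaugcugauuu
miR-27a-3p: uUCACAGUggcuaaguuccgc
miR-27b-3p: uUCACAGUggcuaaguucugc
miR-24-3p, from both Mir24-2 and Mir24-1: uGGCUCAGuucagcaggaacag
miR-24-2-5p: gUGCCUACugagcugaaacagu
miR-24-1-5p: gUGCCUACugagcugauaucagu
miR-3074-5p, from both Mir3074-2 and Mir3074-1: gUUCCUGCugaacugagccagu
miR-128-3p, from both Mir128-1 and Mir128-2: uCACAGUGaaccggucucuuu

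The 3p strands of miR-27a and miR-27b share the seed UCACAGU and differ by 1 substitution, C19U (position counted from 1 at the 5′ end, miR-27a base first). The miR-24 3p strand is the same from both clusters, and the 5p strands of the 2 copies share the seed UGCCUAC. The seed of miR-128-3p, CACAGUG, is that of miR-27 moved by 1 base. Mir23a and Mir23b give the 3p strands miR-23a-3p and miR-23b-3p. The sequence of miR-23b-3p was not in the source used here, so the seeds of these 3p strands were not compared. Between paralogous hairpins the longest identical run was 20 bases for Mir23a and Mir23b, 20 for Mir27a and Mir27b, and 28 for Mir24-2 and Mir24-1.

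All 6 members lie on the plus strand (GRCm38). Mir23a spans chromosome 8, 84208518 to 84208592 (75 nt), Mir27a 84208672 to 84208758 (87 nt) and Mir24-2 84208815 to 84208921 (107 nt), so the whole cluster takes 404 bases. No annotated long gene covers Mir23a or Mir27a, while the last 2 bases of Mir24-2 overlap an exon of the long intergenic RNA Gm26532. On chromosome 13, Mir23b spans 63300484 to 63300557 (74 nt), Mir27b 63300712 to 63300784 (73 nt) and Mir24-1 63301208 to 63301275 (68 nt), over 792 bases. These 3 lie within the protein-coding gene 2010111I01Rik (Aopep in RefSeq) on the same strand: Mir23b is outside its annotated exons, and Mir27b and Mir24-1 lie in an exon of at least 1 of its annotated transcripts. All 3 are also within Fancc on the opposite strand, outside its exons. The miRNA genes Mir3074-2 (84208825 to 84208907) and Mir3074-1 (63301199 to 63301283) lie on the minus strand across from Mir24-2 and Mir24-1.

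Total counts were 45398303 to 53299322 per library, and miRNA features took 0.871% to 1.13% of them. The genotype labels were checked on DQ267100, a snoRNA of the Dlk1-Gtl2 locus, with 2, 0 and 1 reads for KO replicates 1 to 3 against 59, 51 and 52 for WT replicates 1 to 3. Levels are given as CPM, the reads of a feature per 1000000 reads of its library. The level of miRNAs as a class differed between libraries: 133 other tested miRNA features of 68 to 107 nt, the length range of the members, had median log2 deviations from the mean of the 6 libraries of -0.25, 0.54 and 0.08 for KO replicates 1 to 3 against -0.53, 0.35 and -0.18 for WT replicates 1 to 3. For 130 snoRNA features of the same lengths these medians lay between -0.10 and 0.09. For the 288 tested features longer than the members they were -0.05, -0.56 and -0.09 for KO replicates 1 to 3. For WT replicates 1 to 3 they were 0.21, 0.12 and 0.25.

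Mir27b gave the most reads of all members, the chromosome 13 copies of miR-23 and miR-27 gave more than the chromosome 8 copies, and the copies of miR-24 gave nearly equal numbers. Summed over the 6 libraries there were 1101 reads of Mir27b, 647 of Mir23b, 520 of Mir23a, 280 of Mir27a, 255 of Mir24-2 and 246 of Mir24-1. Scaled by length, the mean levels over the 6 libraries were 51.0 ± 17.6 CPM per kb for Mir27b, 29.7 ± 11.5 for Mir23b, 23.5 ± 8.5 for Mir23a, 12.3 ± 5.8 for Mir24-1, 10.9 ± 3.3 for Mir27a and 8.12 ± 3.45 for Mir24-2 (SD, n = 6 libraries of both genotypes). Mir27b was above Mir23b, the next in this order, in 6 of 6 libraries, and Mir23a was above Mir24-1 in 6 of 6. Neighbours at the lower end were less distinct, since Mir24-1 was above Mir27a in 4 of 6 libraries and Mir27a above Mir24-2 in 4 of 6. Among 205 tested miRNA features ordered by the same length-scaled level, Mir27b ranked 63 and Mir24-2, the lowest member, 138. The lower end of the order differed between the group means of KO and WT libraries, but not in every library. The mean levels of Mir24-1, Mir24-2 and Mir27a were 14.6, 10.6 and 10.2 CPM per kb in KO libraries. In WT libraries Mir27a was first of these with 11.7, above Mir24-1 with 10.1 and Mir24-2 with 5.6. In WT replicate 2, however, Mir24-1 (17.5) was above Mir27a (16.2), and in KO replicate 3 Mir27a (13.4) was above Mir24-2 (11.5). The difference in order was not tested.

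Within the miR-27 family, Mir27b lay above Mir27a in 6 of 6 libraries, 4.55-fold on average per kb. The log2 level per kb of Mir27a (0.5 added to each count) minus that of Mir27b was -2.79 to -2.01 over the 6 libraries, with a mean of -2.19 ± 0.30 (SD, n = 6). The exact two-sided sign-flip permutation test gave p = 0.0312, the smallest that 6 libraries allow. After Benjamini-Hochberg adjustment over the 3 paralog pairs it was 0.0625, so this difference did not pass 0.05. It could pass only if another pair also reached the smallest p, so the adjusted value does not judge this pair alone. The difference was -2.31 ± 0.42 in KO libraries against -2.06 ± 0.05 in WT libraries (SD, n = 3 each). Mir23a was below Mir23b in 5 of 6 libraries, by a mean of -0.34 ± 0.29 on the log2 scale (exact permutation test p = 0.0625, adjusted p = 0.0625). Mir24-2 was below Mir24-1 in 5 of 6 libraries, by -0.58 ± 0.45 per kb (exact permutation test p = 0.0625, adjusted p = 0.0625), but without the division by length it was above by 0.07 (adjusted p = 0.688 by the same exact test).

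The 4 features around miR-24 had almost the same number of reads. Over all libraries Mir24-2 had 255, its opposite-strand neighbour Mir3074-2 had 250, Mir24-1 had 246 and Mir3074-1 had 248, or 25.5%, 25%, 24.6% and 24.8% of their 999 reads. In the single libraries, the 95% Wilson interval of a feature's share held 25% in 22 of 24 cases. The exceptions were Mir24-2 in KO replicate 1, at 33.8% (26.7% to 41.6%), and Mir3074-1 in KO replicate 3, at 31.6% (26.1% to 37.6%). Such intervals describe counting error alone, since no molecular identifiers are recorded and PCR copies can be read more than once. Mir3074-2 is complementary to Mir24-2 over its whole 83 bases, and Mir24-1 to Mir3074-1 over its whole 68. An even division also held for other features on opposite strands of 1 site: of the 12 such pairs with at least 100 reads, these 2 included, 10 had a first member with 45% to 55% of the reads, among them Gm24111 with 15468 reads against 15601 for Mirlet7f-1. The others were Mir126a, with 1936 reads against 4 for Mir126b, and Mir142b, with 724 against 530 for Mir142. The 95% Wilson interval of the first member's share held 50% in 9 of the 12 pairs. No source used here gives the strand setting of the counting or its handling of reads with several matches, so reads of the 4 miR-24 features cannot be assigned to a strand or, for the shared 28 bases, to a cluster.

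**Figure D1:**
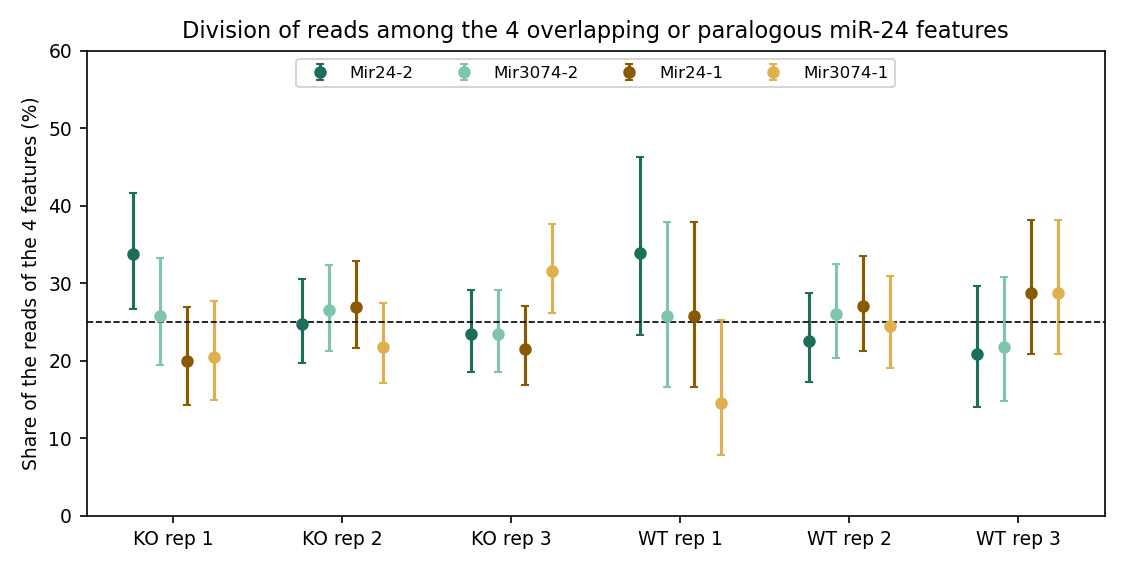
Share (%) of the reads of Mir24-2, Mir3074-2, Mir24-1 and Mir3074-1 taken by each of them, for each library on the x axis. Points are shares and bars are 95% Wilson intervals; the dashed line marks 25%, which lies inside 22 of the 24 intervals.

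Between the genotypes no member was called. The fit was made over all 624 features that passed the expression filter (edgeR's quasi-likelihood test, KO over WT), and all 6 members passed it. At a Benjamini-Hochberg adjusted p under 0.05, 0 of the 6 members and 1 of the 624 features (0.160%) were called, the one being DQ267100; at an unadjusted p under 0.05 there were 1 member, Mir24-2, and 40 features. DESeq2 called 0 members and the same number of features, 1. The estimates were above 0 for 5 of 6 members, with a median log2 fold change of 0.59, where 134 of 205 tested miRNAs (65.4%) were above 0 with a median of 0.21 and the median of all 624 features was -0.08.

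**Figure D2:**
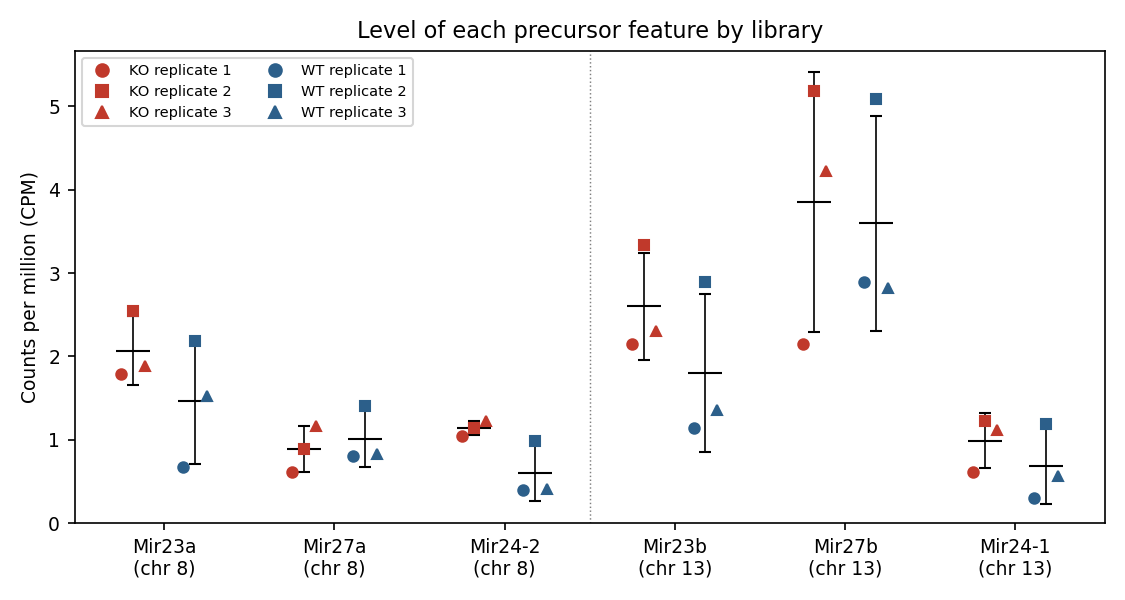
CPM of the 6 members (x axis, with their chromosome) in each library, KO in red and WT in blue, with a marker shape per replicate number; bars are the mean and SD of 3 libraries. Mir24-2 is the member whose KO libraries (1.05 to 1.23 CPM) all lie above its WT libraries (0.394 to 0.991 CPM), and WT replicate 2 is the highest WT library for every member.

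Of the chromosome 8 members, Mir24-2 had the largest estimate. miR-24 is known to repress the activin receptor ALK4 during erythroid maturation. Mir24-2 gave 51, 59 and 58 reads for KO replicates 1 to 3 against 21, 45 and 21 for WT replicates 1 to 3, which is 1.05, 1.14 and 1.23 CPM against 0.394, 0.991 and 0.414 CPM. All 3 KO libraries were above all 3 WT libraries, with WT replicate 2 close behind the KO libraries; of the 624 features, 17 (2.72%) had every KO library above every WT library, and of the 205 miRNAs 9 (4.39%). Its log2 fold change was 0.99 (SE 0.42, approximate 95% interval 0.00 to 1.98), with an unadjusted p of 0.0498 and an adjusted p of 0.710 by edgeR. Its reads cannot be assigned to a strand, and those in the 28 bases shared with Mir24-1 cannot be assigned to a cluster. The groups overlapped for Mir3074-2 on the other strand, with 0.805, 1.22 and 1.23 CPM in KO and 0.300, 1.15 and 0.433 CPM in WT replicates 1 to 3 (an estimate of 0.86 on the log2 scale with SE 0.52; adjusted p = 0.730 by edgeR). They also overlapped for the sum of the 4 miR-24 features, with 3.11, 4.59 and 5.22 CPM in KO libraries against 1.16, 4.41 and 1.99 CPM in WT libraries.

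Mir23a, whose mature strand is known to repress mitochondrial glutaminase downstream of Myc, gave 87, 132 and 89 reads for KO replicates 1 to 3 against 36, 99 and 77 for WT replicates 1 to 3. Those are 1.79, 2.55 and 1.88 CPM against 0.675, 2.18 and 1.52 CPM. WT replicate 1 was the low library and WT replicate 2 lay above 2 of the KO libraries, so the genotypes overlapped. The log2 fold change was 0.58 (SE 0.45, interval -0.50 to 1.66, adjusted p = 0.735 by edgeR).

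Mir27a was the 1 member with an estimate below 0. Its mature strand is known to target the transcription factor RUNX1. It gave 30, 46 and 55 reads in the KO libraries against 43, 64 and 42 in the WT ones, or 0.619, 0.887 and 1.16 CPM against 0.807, 1.41 and 0.827 CPM. KO replicate 1 was lowest and WT replicate 2 highest, and between them the other WT libraries lay below the other KO libraries. The log2 fold change was -0.13 (SE 0.36, interval -0.99 to 0.72, adjusted p = 0.941 by edgeR), and its sign turned without KO replicate 1 (0.15) or without WT replicate 2 (0.25).

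On chromosome 13, Mir27b had the widest spread in CPM within the KO group. It shares its seed with Mir27a. It gave 104, 269 and 200 reads for KO replicates 1 to 3 against 154, 231 and 143 for WT replicates 1 to 3, or 2.15, 5.19 and 4.23 CPM against 2.89, 5.09 and 2.82 CPM. KO replicate 1 was the lowest of all libraries and KO replicate 2 the highest. The log2 fold change was 0.16 (SE 0.41, interval -0.83 to 1.15, adjusted p = 0.938 by edgeR), and it was -0.06 without KO replicate 2.

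Mir23b gave 104, 173 and 109 reads in the KO libraries against 61, 131 and 69 in the WT ones. Its levels were 2.15, 3.34 and 2.3 CPM in KO and 1.14, 2.89 and 1.36 CPM in WT replicates 1 to 3. WT replicate 2 lay above 2 of the KO libraries, and the other WT libraries lay below all of them (log2 fold change 0.60, SE 0.43, interval -0.43 to 1.63, adjusted p = 0.733 by edgeR). Mir24-1 gave 30, 64 and 53 reads in the KO libraries against 16, 54 and 29 in the WT ones, or 0.619, 1.23 and 1.12 CPM against 0.300, 1.19 and 0.571 CPM. Here too WT replicate 2 exceeded 2 KO libraries (log2 fold change 0.59, SE 0.54, interval -0.69 to 1.88, adjusted p = 0.759 by edgeR).

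**Figure D3:**
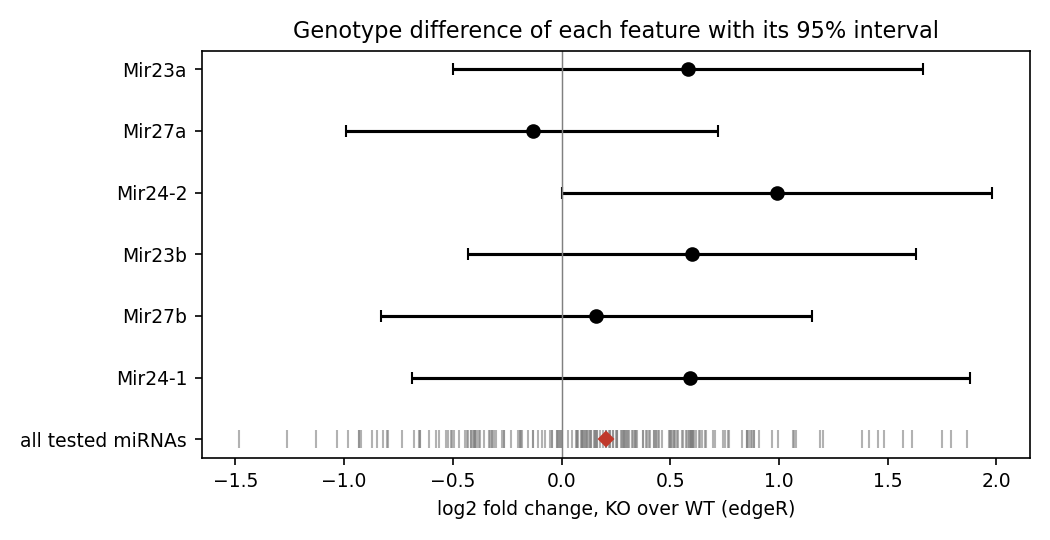
Log2 fold change, KO over WT (x axis), of each member with its approximate 95% interval from the edgeR fit; grey ticks are the 205 tested miRNA features and the red diamond is their median, 0.21. The intervals of 5 members span 0, and that of Mir24-2 starts at 0.00.

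As sums of their 3 members, both clusters overlapped between the genotypes. The chromosome 8 cluster had 3.47, 4.57 and 4.27 CPM for KO replicates 1 to 3 against 1.88, 4.58 and 2.76 CPM for WT replicates 1 to 3. Its mean was 4.1 ± 0.57 CPM in KO libraries against 3.07 ± 1.38 CPM in WT libraries (SD, n = 3 each), a log2 ratio of means of 0.42. The chromosome 13 cluster had 4.91, 9.76 and 7.65 CPM in KO libraries against 4.33, 9.16 and 4.75 CPM in WT libraries. Its means were 7.44 ± 2.43 and 6.08 ± 2.68 CPM, a log2 ratio of 0.29. In both sums WT replicate 2 stood beside the highest KO library and WT replicate 1 was the lowest library. The sums describe the clusters and were given no test, since the members were chosen together.

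The balance between the clusters overlapped between the genotypes. Chromosome 8 reads made up 41.4% (95% Wilson interval 36.7% to 46.2%), 31.9% (28.6% to 35.3%) and 35.8% (32.0% to 39.9%) of the reads of both clusters in KO replicates 1 to 3. In WT replicates 1 to 3 they made up 30.2% (25.5% to 35.4%), 33.3% (29.7% to 37.1%) and 36.7% (32.1% to 41.7%). The log2 ratio of chromosome 8 over chromosome 13 reads was -0.81 ± 0.30 in KO libraries against -1.0 ± 0.21 in WT libraries (SD, n = 3 each), and the difference of 0.18 was smaller than either SD. It was 0.03 without KO replicate 1, 0.08 without WT replicate 1, 0.33 without KO replicate 2 and 0.29 without WT replicate 3. Both sums include reads of the 28 bases shared by Mir24-2 and Mir24-1, which cannot be assigned to a cluster.

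The division of reads within each cluster is given as a description, with the miR-27 members first. Mir27a had 17.9%, 19.4% and 27.2% of the chromosome 8 reads for KO replicates 1 to 3 against 43.0%, 30.8% and 30.0% for WT replicates 1 to 3. Mir27b had 43.7%, 53.2% and 55.2% of the chromosome 13 reads in KO libraries against 66.7%, 55.5% and 59.3% in WT libraries. The genotypes did not overlap for either, but for Mir27b KO replicate 3 and WT replicate 2 were nearly level. Mir24-2 had 24.9% to 30.4% of its cluster in KO libraries against 15% to 21.6% in WT libraries, again without overlap. So 3 of the 6 shares did not overlap, in either direction, beside 11 of 46 (23.9%) in 19 other clusters of tested miRNA features (same strand, gaps of at most 1000 bases), 16 of which have 2 members whose shares mirror each other. The shares of Mir23a, Mir23b and Mir24-1 overlapped: 44.1% to 55.7% against 36.0% to 55%, 30.1% to 43.7% against 26.4% to 31.5%, and 12.6% to 14.6% against 6.93% to 13%. Shares of 1 cluster add up to the whole and so do not move separately. They were chosen after the data were seen and were not tested. Reads of Mir24-2 and Mir24-1 cannot be assigned to a strand or, in the 28 bases they share, to a cluster. The total behind every share includes such reads.

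**Figure D4:**
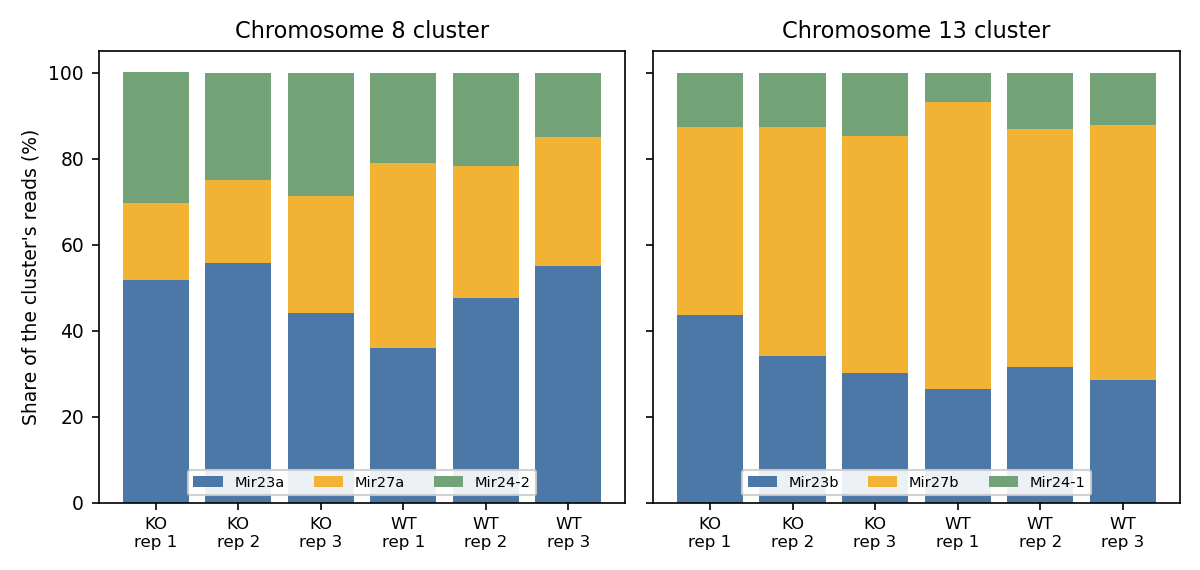
Share (%) of each cluster's reads taken by its 3 members in each library (x axis), stacked to the whole, for the chromosome 8 cluster on the left and the chromosome 13 cluster on the right. The miR-27 band (yellow) is 17.9% to 27.2% of the chromosome 8 cluster in the KO libraries and 30.0% to 43.0% in the WT libraries.

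The members followed the level of other miRNA features from library to library. Their median log2 deviation from the mean of the 6 libraries was -0.10, 0.58 and 0.29 for KO replicates 1 to 3 against -0.88, 0.50 and -0.35 for WT replicates 1 to 3. KO replicate 2 and WT replicate 2 were thus the highest libraries and WT replicate 1 the lowest, as for the 133 other miRNA features of the same lengths. Single members departed from this order, such as Mir27a and Mir27b at -0.54 and -0.71 in KO replicate 1, where Mir24-2 was at 0.39. The part of the library-wide miRNA level in the genotype estimates was not tested. As shares of all miRNA reads, the cluster sums had log2 ratios of means of 0.33 (chromosome 8) and 0.18 (chromosome 13). With TMM-scaled library sizes these ratios were 0.48 and 0.35, against 0.42 and 0.29 in CPM.

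**Figure D5:**
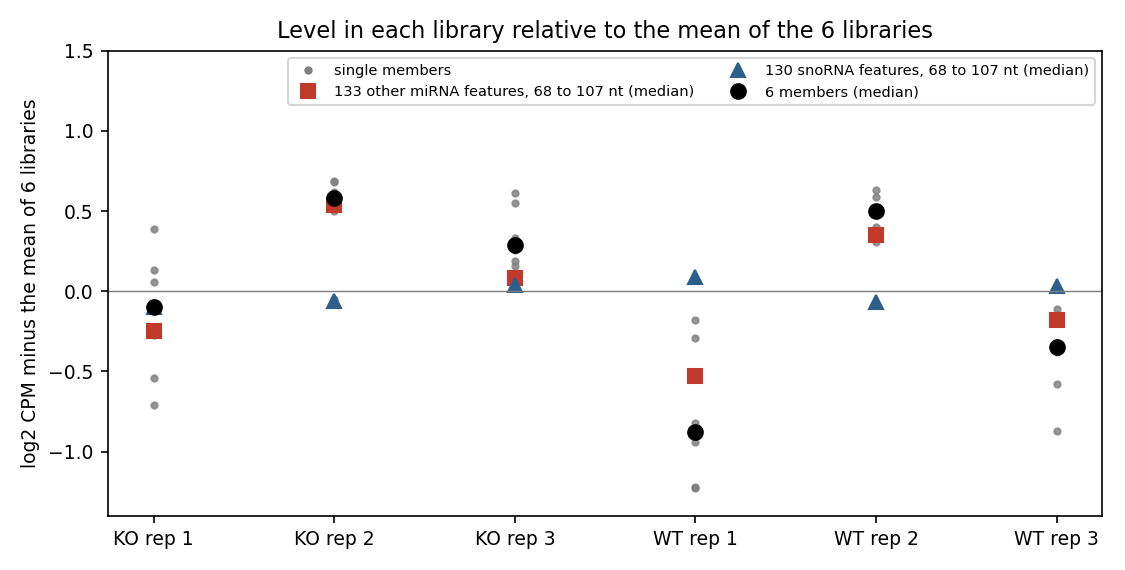
Log2 CPM minus the mean of the 6 libraries (y axis) in each library (x axis) for single members (grey), their median (black), the median of 133 other miRNA features of 68 to 107 nt (red squares) and that of 130 snoRNA features of the same lengths (blue triangles). The medians of the members and of the other miRNAs are highest in KO replicate 2 and WT replicate 2 and lowest in WT replicate 1. Single members depart from this order, and the snoRNA medians stay between -0.10 and 0.09.

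The features closest in profile to each cluster sum were other miRNA precursors. Likeness was the root mean square (RMS) difference of centred log2 CPM over the 6 libraries, among 616 other tested features. For the chromosome 8 sum the closest were Mir101a (RMS 0.05), Mir223 (0.09) and Mir140 (0.10), where the median feature had 0.62. The single members Mir23a, Mir24-2 and Mir27a were farther from their own sum, at 0.21, 0.31 and 0.42. For the chromosome 13 sum the closest were Mirlet7i (0.06), Mir340 (0.09) and Mir221 (0.11), against a median of 0.60. The single members Mir27b, Mir23b and Mir24-1 were at 0.18, 0.23 and 0.31. Each member has fewer reads than its sum, and the part of counting error in these distances was not tested. Mir223, a miRNA of granulocytes and monocytes, had 13.5, 21.1 and 20.0 CPM in KO libraries against 8.61, 19.1 and 12.4 CPM in WT libraries (log2 fold change 0.51, adjusted p = 0.733 by edgeR). The 6 libraries share their depth and miRNA content across all these features, and likeness here is a description.

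Mir128-1, whose mature 3p strand has the seed next to that of miR-27, was compared as a relative outside the clusters. It gave 31, 143 and 222 reads for KO replicates 1 to 3 against 44, 49 and 41 for WT replicates 1 to 3, so KO replicates 2 and 3 were high and KO replicate 1 was not. Its log2 fold change was 1.61 (SE 0.64, unadjusted p = 0.0415, adjusted p = 0.710 by edgeR). Mir128-2, which gives the same 3p strand, had 36 reads in all and was under the filter; unlike the 2 copies of Mir24, the 2 copies of Mir128 had very different counts.

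Of other miRNAs of blood cell fate none was called. Of 28 on the list 23 were tested and 5 were under the filter. Of the 23, 22 had estimates above 0 and 1 below, with a median log2 fold change of 0.51. Several of them lie in 1 cluster, such as Mir17, Mir20a and Mir92-1, so they do not count separately. Among all 205 tested miRNAs, 134 (65.4%) were above 0 with a median of 0.21, and 11 had an unadjusted p under 0.05. Of the list edgeR called 0, with 2 at an unadjusted p under 0.05 (Mir150 and Mir125a). The most abundant were Mir21a, of myeloid cells and inflammation, with 1040 ± 240 CPM in KO libraries against 892 ± 479 in WT libraries, Mir10a with 60.1 ± 5.5 and 58.0 ± 24.3, Mir92-1 of the miR-17-92 cluster with 21.3 ± 0.7 and 18.9 ± 5.5, and Mir223 with 18.2 ± 4.1 and 13.4 ± 5.3 (SD, n = 3 each).

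Marker miRNAs of the cell types that such a sample could hold were measured as precursor features too. The 2 myeloid markers, Mir223 and Mir142, summed to 15.5 to 23.2 CPM in KO libraries against 9.68 to 21.1 CPM in WT libraries. The 4 erythroid markers, Mir144, Mir451a, Mir486a (here Mir486) and Mir486b (here Mir3107), summed to 4.16 to 9.78 and 2.05 to 4.79 CPM. Mir451a has the same position as Mir451b, and Mir486 and Mir3107 lie on opposite strands of 1 site, so each shares its reads with another gene. The myeloid marker Mir142 and the neural marker Mir9-1 also lie opposite other features, Mir142b and Gm25641, so their reads may be shared too. Mir150, of mature lymphocytes, had 4.0 to 6.09 and 0.694 to 3.19 CPM, and Mir126a, of stem cells and endothelium, 5.65 to 17.4 and 0.544 to 5.40 CPM, both without overlap of the genotypes, where 2.72% of all tested features and 4.39% of tested miRNAs had every KO library above every WT library. All 8 stromal and muscle markers had reads, with sums of 2.08 to 13.6 and 1.11 to 3.52 CPM. The 4 matched epithelial markers summed to 0.536 to 0.887 and 0.525 to 0.837 CPM, the 4 matched neural ones to 0.0619 to 2.16 and 0.396 to 0.788 CPM, and the liver marker Mir122 was at 0 in at least 1 library of each genotype. Whether the cell content of the libraries had a part in the levels of the 6 members was not tested.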

How the data were processed

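Small RNA was sequenced in 3 KO and 3 WT libraries, grouped by title. The deposited values are read counts per feature; per the submitters' processing notes Trimmomatic 0.38, Bowtie2 2.3.4.1 and GRCm38 were used, with the counting tool, strand setting and handling of multiple matches not given in the sources used here. Features without reads are not listed and were set to 0. Of 1823 features 1822 matched a GENCODE M21 gene by start and end, and the last, the 45S pre-rRNA accession, held 3.26% to 5.10% of the counts.

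Counts were tested with edgeR 4.0.16 (R 4.3.3; quasi-likelihood, TMM, default filter with minimum count 10 and total 15, Benjamini-Hochberg over 624 features, threshold 0.05), a script also tested on simulated data. Standard errors are the log2 fold change over the root of F, and intervals use the fit's degrees of freedom. Profiles used log2 CPM with a prior of 2 counts. Exact permutation tests used SciPy 1.17.1. DESeq2 1.42.0, other scalings and filters, summing of features overlapping by at least 80% and leaving out libraries were alternatives. Named features are the 6 members, overlapping features, Mir128-1 and Mir128-2, the 3 nearest profiles per cluster and, of the fate list, any called and the 4 most abundant; Mir150 and Mir125a were named after their values were seen. Listed names were matched by symbol or, at the same position, by RefSeq synonym. The members and lists were chosen with earlier results of these data known.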

Additional observations from a re-analysis of the deposited data

How the results depend on the processing

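The count of called members was 0 under all 13 alternatives: RLE size factors, library size only, DESeq2, no filter, at least 50 counts in 3 libraries (which left 5 members, without Mir27a), the replicate block, overlapping features summed, and each library left out. The features called numbered 1, 13 with no filter, 0 with the replicate block and 0 to 1 with 1 library left out, being 0 without KO replicate 3, WT replicate 1, WT replicate 2 or WT replicate 3; the cause was not tested. Same-numbered libraries had correlated deviations of -0.127, 0.398 and -0.360 over the tested features, so the numbers were not taken to pair them, and the replicate block gave log2 ratios of 0.50 and 0.32 for the chromosome 8 and 13 sums. Log2 fold changes kept their sign in all alternatives for Mir23a (0.33 to 1.07), Mir23b (0.43 to 1.20), Mir24-2 (0.86 to 1.63) and Mir24-1 (0.33 to 1.32), with the highest values without WT replicate 2; adjusted p ranged from 0.269 to 0.996 over members and alternatives. Mir27a turned to 0.15 without KO replicate 1 and 0.25 without WT replicate 2, and Mir27b to -0.06 without KO replicate 2, over full ranges of -0.28 to 0.25 and -0.06 to 0.58; the cause was not tested. With 1 library left out the cluster sums' log2 ratios were 0.16 to 0.82 (chromosome 8) and 0.05 to 0.71 (chromosome 13), lowest without WT replicate 1 and KO replicate 2, respectively, and highest without WT replicate 2. Mir24-2 against Mir24-1 was 0.07 without length scaling, where it was -0.58 per kb. The shift between these values is by construction, since the hairpins differ in length (107 and 68 nt). In shares chosen after seeing the data, KO minus WT was -13.1 points for Mir27a (-16.0 to -8.89 with 1 library left out) and -9.81 for Mir27b (-12.3 to -6.31); that of Mir23a, 4.32, turned to -0.784 without WT replicate 1 (range -0.784 to 8.72 with 1 library left out), and that of Mir24-1, 2.65, became 6.40 with overlapping features added and 0.791 without WT replicate 1. That of Mir27b was -6.31 without KO replicate 1, and that of Mir23b, 7.16, was 3.31 without it. With 16 to 269 reads per member and library, a log2 fold change of 0.99 (Mir24-2) was not called.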
